A study of Mus musculus with 6 samples.

Results

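The sarcomeric myosin light chain genes were followed in the mouse soleus, where many fibres are of the slow type, as 7 genes taken by symbol from the 30145 gene symbols on the arrays. They are Myl1, Myl2, Myl3, Myl4, Myl6b and Mylpf, which encode light chains, and Mylk2, which encodes the light chain kinase of skeletal muscle. Each of the 7 had 1 feature on the array that carried its symbol alone, and all 7 lay above the median of every array and were tested. The muscles came from male mice aged 39 to 41 weeks, with 1 array a mouse. The 3 Control mice were littermates labelled wild type, and in the 3 cKO mice Mbtps1 (site-1 protease) was deleted by a Cre recombinase under Dmp1 regulatory sequence. Dmp1 is a gene of osteocytes, the cells embedded in bone. The sources used here do not say whether the Control mice carried the Cre or a floxed allele.

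A muscle myosin is built on a pair of heavy chains, and each heavy chain carries an essential and a regulatory light chain around the neck that joins its motor head to the tail. Slow and fast fibres use different genes for both kinds of light chain, and embryonic muscle also uses the essential chain gene Myl4. Mylk2 is switched on by calcium and calmodulin, phosphorylates the regulatory light chain and so raises the force of later twitches, above all in fast fibres.

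The deposited values were read as log2 signals, and a difference of 1 log2 unit is a factor of 2. Differences are cKO minus Control, and p-values are limma's, adjusted over all 33334 features tested. The mouse numbers formed a low range (715 and 716 for Control 1 and 2, 733 for cKO 1) and a high range (776 for Control 3, 779 and 780 for cKO 2 and 3), and what a range stands for is not in the labels. Values of single arrays are listed in the order of replicates 1, 2 and 3. Array medians were at most 4.13, except for 4.37 in cKO 1, which also had the lowest limma array weight, 0.25 against 0.59 to 4.01. All 6 skeletal muscle markers were measured, with a mean level of 18.13 to 18.35 on the 6 arrays. Acta1 sat at the highest signal of every array, and Neb lay 0.0050 to 0.021 under it. Mb kept a distance of 7.18 under it on Control 3 and every cKO array. The mean therefore follows the array maxima in part and does not compare the muscle content of the arrays. The 6 cardiomyocyte markers matter because Myl2, Myl3 and Myl4 also serve the heart. Nppa and Ryr2 were below the filter, and the other 4 had a mean level of 6.30 to 6.68. Among these 4, Myh6 was at 11.73 to 12.07, and Nppb, Tnni3 and Myl7 were at 4.27 to 5.01. Mbtps1 itself was at 7.05 to 7.39 in Control and 7.11 to 7.77 in cKO, a difference of 0.21 (SE 0.21). The share of its transcript that the feature covers was not given, so this does not check the labels. In whole muscle, fewer fibres of a type and less RNA per fibre cannot be told apart.

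Of the 7 genes, the slow-type essential light chain Myl6b and the embryonic light chain Myl4 were the 2 in which all 3 cKO arrays lay above all 3 Control arrays. The adult slow and fast chains Myl2, Myl3 and Mylpf differed by 0.08 log2 units or less, and the kinase Mylk2 by 0.15 with overlapping groups. No light chain gene passed an adjusted p of 0.05 in limma (0 of 7, against 0% of all features), and all 7 had an adjusted p of 0.999. At an unadjusted p under 0.05 there were 2 of 7, Myl4 and Myl6b, against 4.5% of all features (3.7% higher and 0.807% lower in cKO). The groups did not overlap for 2 of 7 genes, against 11% of all features, or 8.95% with cKO above and 2.05% with cKO below Control. Over the 7 genes 5 differences were above 0 and 2 below, with a median of 0.08. Myl1, which followed the array maximum, is among the 5, and the median is the value of Myl2, which was partly tied to it, while over all features the median was 0.07 with 65.8% above 0. The count of 2 at an unadjusted p under 0.05 was 0 without Control 1 and 0 without Control 2. The shares of all features in limma were then 3.07% and 4.22%. The count was 1 without Control 3, cKO 2 or cKO 3, where the shares were 9.43%, 3.12% and 2.89%. The count of genes without overlap was 4 without cKO 1. Groups part more easily with fewer arrays, and the share of all features without overlap was not counted there.

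**Figure D1:**
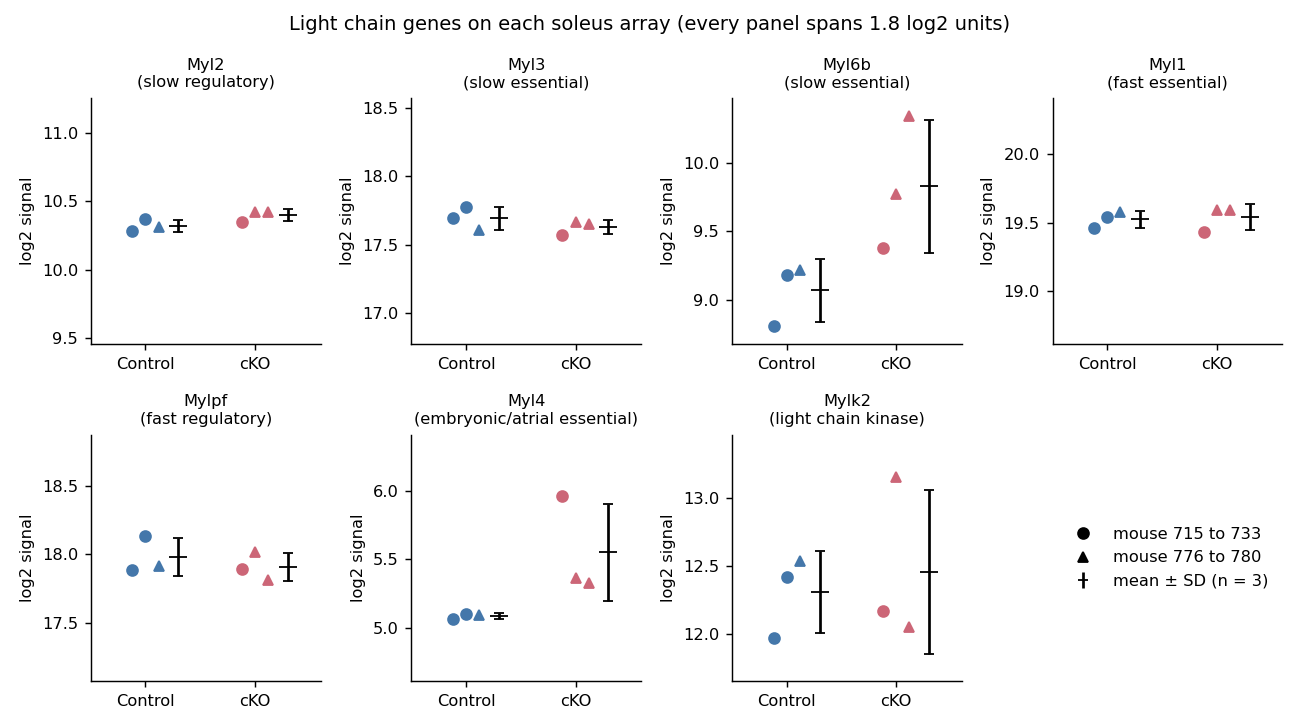
Log2 signal of each light chain gene on every array, by genotype, with the group mean ± SD (n = 3) beside the points and symbols for the range of mouse numbers; every vertical axis spans 1.8 log2 units. Myl6b and Myl4 have all cKO points above all Control points, while the points of Myl1, Myl2, Myl3 and Mylpf lie close together and those of Mylk2 overlap with cKO 2 highest.

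Myl6b encodes the essential chain known as MLC1sa, which slow muscle and nonmuscle cells both use. The Control arrays read 8.81, 9.18 and 9.21 and the cKO arrays 9.38, 9.77 and 10.34. Every cKO array was above every Control array, with a gap of 0.16 between the highest Control and the lowest cKO array, and cKO 3 was the highest of all. Control averaged 9.07 ± 0.23 and cKO 9.83 ± 0.49 (SD, n = 3 each). The difference of 0.76 log2 units (SE 0.29, limma 95% interval 0.08 to 1.45), a 1.70-fold higher signal, had an unadjusted p of 0.0337 and an adjusted p of 0.999. An exact two-sided permutation test over the arrays gave p = 0.1, the smallest that 3 against 3 arrays allow.

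The Myl6b difference was 0.38 in the low and 0.84 in the high range of mouse numbers. The low range holds cKO 1 as its only cKO array, and the high range Control 3 as its only Control array. With the groups apart, the sign in each range was fixed and adds no support. The difference was 0.51 without cKO 3. With the range of numbers as a block it was 0.61, and its unadjusted p in the limma fit was 0.0585. After centring on array medians it was 0.70, but cKO 1 then no longer lay above all Control arrays. Myl6b varied more over the 6 arrays than 90.0% of the features tested. By the smallest root mean square difference over the 6 arrays, after each profile was centred on its own mean, the most alike of 18333 other genes were Adgrd1, Snord73a and Tpp1. Those differences were 0.085, 0.094 and 0.12 log2 units, beside 0.49 for the spread of Myl6b itself. Adgrd1, an adhesion G protein-coupled receptor, read 6.30, 6.57 and 6.75 on the Control arrays against 6.96, 7.24 and 8.01 on the cKO arrays. Tpp1, a lysosomal peptidase, read 9.83, 10.33 and 10.40 against 10.32, 11.09 and 11.49. As with Myl6b, Control 1 was lowest and cKO 3 highest in both genes, but cKO 1 lay below Control 3 in Tpp1.

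**Figure D2:**
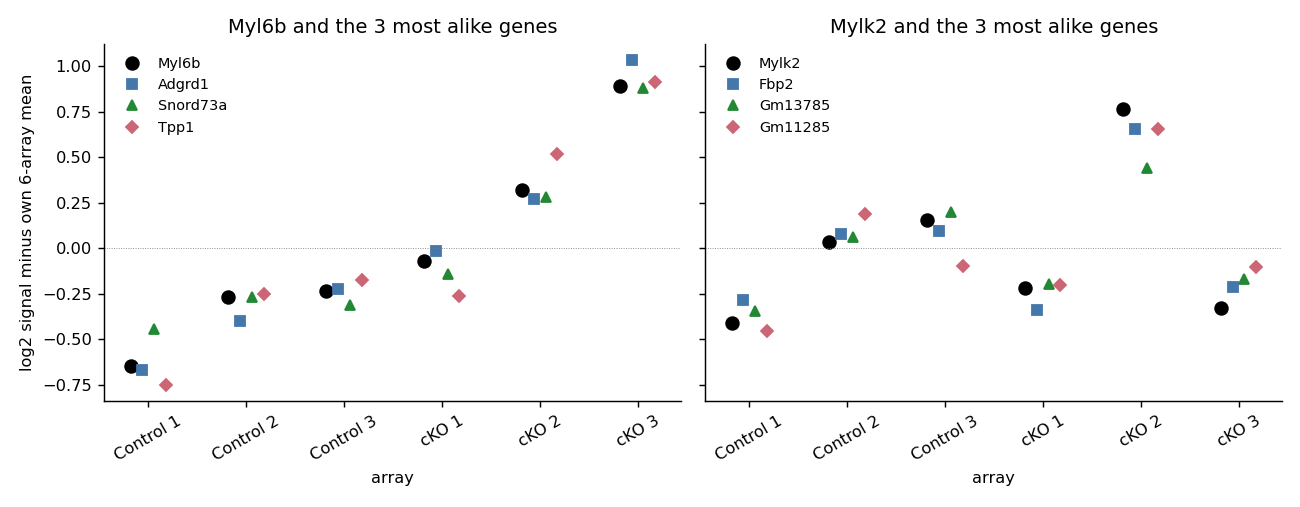
Log2 signal minus its own 6-array mean for Myl6b (left) and Mylk2 (right), each with the 3 genes whose profile over the 6 arrays was most alike; the horizontal axis lists the arrays. Myl6b and its 3 genes are lowest in Control 1 and highest in cKO 3, and Mylk2 and its 3 genes are highest in cKO 2.

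Myl3 encodes MLC1sb, the other slow essential chain and the ventricular one, and is set beside Myl6b as a chain of the same class. The Control arrays read 17.69, 17.77 and 17.61 and the cKO arrays 17.57, 17.66 and 17.65, with overlapping groups. The difference was -0.06 (SE 0.15, limma 95% interval -0.43 to 0.30), and it was 0.0064 after quantile normalization. In the low range of mouse numbers it was -0.16 and in the high range 0.05. A test of the difference between the Myl6b and Myl3 responses was not run.

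The 250 bases before the start of each of these slow essential chain genes, from RefSeq (GRCm38.p6), are given to show how their promoters differ in sequence, with matches to the motifs searched in capitals. Myl3 is at chr9:110763428-110763677 on the plus strand and Myl6b at chr10:128498686-128498935 on the minus strand, each written 5′ to 3′.
Myl3: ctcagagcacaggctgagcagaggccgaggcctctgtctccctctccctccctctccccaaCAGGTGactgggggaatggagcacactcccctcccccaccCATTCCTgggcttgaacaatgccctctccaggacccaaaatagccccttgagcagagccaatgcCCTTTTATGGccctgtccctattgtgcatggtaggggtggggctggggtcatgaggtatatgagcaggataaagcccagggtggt
Myl6b: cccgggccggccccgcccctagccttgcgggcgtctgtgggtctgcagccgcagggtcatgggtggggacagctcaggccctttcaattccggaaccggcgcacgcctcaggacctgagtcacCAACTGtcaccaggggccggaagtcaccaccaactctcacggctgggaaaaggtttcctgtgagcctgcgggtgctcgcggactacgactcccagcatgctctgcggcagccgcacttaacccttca

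Both strands were searched for the E-box (CANNTG), the site of myogenic basic helix-loop-helix factors, for MCAT (CATTCCT), the site of TEAD factors, and for the CArG box and the MEF2 site by name. No match overlapped another. The Myl3 window held 1 E-box, 1 MCAT and 1 CArG box, which lay 189 to 184, 149 to 143 and 85 to 76 bases before the start. The Myl6b window held 1 E-box, 127 to 122 bases before the start, and its GC content was 66%, against 59.6% for Myl3 and a median of 52.4% over all windows. Of 32851 windows of this length in the table, 66.2% held an E-box, 4.51% MCAT, 1.47% a CArG box and 2.92% a MEF2 site, so an E-box is common. The window before the outermost start of Myl2 held 1 E-box and no match to the other motifs. These matches describe letters only.

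Myl4 encodes the essential chain of embryonic skeletal muscle and of the atria. The Control arrays read 5.06, 5.10 and 5.09 and the cKO arrays 5.96, 5.37 and 5.32. The Control arrays lay close together and below every cKO array, with a gap of 0.22, and cKO 1 stood above the other cKO arrays. Control averaged 5.08 ± 0.02 and cKO 5.55 ± 0.36 (SD, n = 3 each). The difference was 0.47 log2 units (SE 0.19, limma 95% interval 0.0040 to 0.93), a 1.38-fold higher signal, with an unadjusted p of 0.0485, an adjusted p of 0.999 and an exact two-sided permutation p = 0.1. It was 0.88 in the low and 0.25 in the high range of mouse numbers, and 0.26 without cKO 1, the array with the raised median. After centring on array medians it was 0.41 with the groups still apart, and with the number range as a block it was 0.57. The unadjusted p in those limma fits was 0.0169 and 0.0183, within a span of 0.00792 to 0.108 over the alternatives. Myl4 overlaps Cdc27, a cell cycle gene, and several predicted genes in the RefSeq gene table. Cdc27 was at 9.68 to 10.13 in Control and 9.82 to 10.29 in cKO, with overlapping groups. Cdc27 and the predicted genes Gm11663 and Gm7020 were highest in cKO 1, as Myl4 was, at 10.29, 9.16 and 7.87. The groups of these predicted genes overlapped too. The part of the overlapping genes in the Myl4 values was not tested.

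Levels of markers of other cell types are given beside these genes. Of 10 tendon markers 9 were measured and all 9 were above 0 in their difference, 6 of them at an unadjusted p under 0.05 in limma, where 3.7% of all features were so, and 0 after adjustment, with a mean level of 5.77 to 6.59 on the Control arrays and 7.15 to 7.43 on the cKO arrays. Mkx, a transcription factor of tendon cells, was below the filter, and Scx, another, was at 5.44 to 5.77 in Control and 5.57 to 5.88 in cKO. Across single arrays the tendon mean was highest in cKO 3 and, among the Control arrays, in Control 3. Myl6b was highest on the same arrays of each group, cKO 3 at 10.34 and Control 3 at 9.21. The order differed from that of Myl4, which was highest in cKO 1. The part of the tendon signal in the light chain values was not tested. Of the other lists, endothelial markers were below 0 in their difference in 6 of 6, with 1 (Cldn5) at an unadjusted p under 0.05 and with the groups apart, at a mean of 9.63 to 10.76 in Control and 9.76 to 9.89 in cKO. Adipocyte markers were above 0 in 4 of 5, with 2 at an unadjusted p under 0.05 and with the groups apart, Plin1 and Cidec, and a mean of 6.70 to 6.87 in Control and 6.83 to 7.40 in cKO. Macrophage markers were above 0 in 6 of 6, with 0 at an unadjusted p under 0.05 and a mean of 5.75 to 6.47 in Control and 6.13 to 7.03 in cKO. Smooth muscle and pericyte markers were above 0 in 6 of 7, with 1 at an unadjusted p under 0.05 and with the groups apart, Cspg4. Over all features 65.8% of the differences were above 0. At an unadjusted p under 0.05 in limma, 3.7% were higher and 0.807% lower in cKO. The part of these lists in the light chain values was not tested either.

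Myl1 encodes the fast essential chains MLC1f and MLC3f. The Control arrays read 19.46, 19.54 and 19.58 and the cKO arrays 19.43, 19.59 and 19.59. On every array it lay 0.34 log2 units under the highest signal of that array, and this distance varied by only 5e-06 over the 6 arrays. The difference between the genotypes, 0.01, was therefore that of the array maxima, which was 0.01 as well. A feature that follows the array maximum in this way carries no measurement of its own, so no fold is given for Myl1. Of 33334 features tested, 51 (0.153%) kept a distance constant to within 0.01. Among them were the features of Tpm2, a tropomyosin, at 0.29 under the maximum, Actn2, an actinin of the Z-disc, at 0.10, and Gapdh, a glycolytic enzyme, at 0.66. These 3 genes and the distance itself were picked after the values were seen.

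Myl2 encodes the regulatory chain of slow fibres and of the ventricle, which Mylk2 and related kinases phosphorylate. The Control arrays read 10.29, 10.37 and 10.31 and the cKO arrays 10.35, 10.42 and 10.42. The groups overlapped, and only 0.471% of the features tested varied less over the 6 arrays. The difference was 0.08 (SE 0.16, limma 95% interval -0.31 to 0.47). Myl2 was also partly tied to the array maximum. Its distance under that maximum was 9.51 on Control 1, Control 2, cKO 2 and cKO 3, 9.61 on Control 3 and 9.42 on cKO 1. Of all features tested, 83 (0.249%) had 4 of 6 distances within 0.002 of each other, as Myl2 did.

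**Figure D3:**
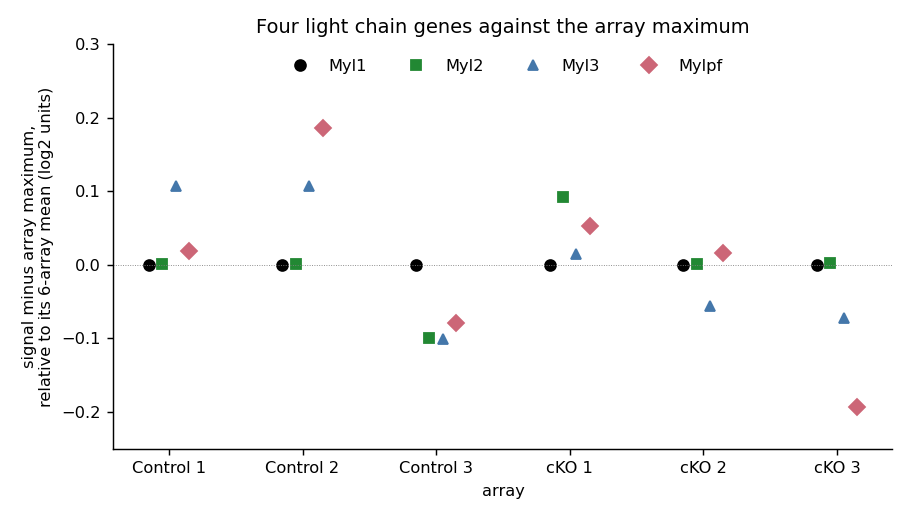
Signal minus the highest signal of the same array, relative to its own 6-array mean in log2 units, for Myl1, Myl2, Myl3 and Mylpf on each array. Myl1 stays at 0 on all 6 arrays and Myl2 on 4 of 6, while Myl3 and Mylpf vary by 0.21 and 0.38 log2 units.

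Mylpf encodes the regulatory chain of fast fibres, the main substrate of Mylk2. The Control arrays read 17.89, 18.14 and 17.91 and the cKO arrays 17.89, 18.02 and 17.81. Control 2 was highest and cKO 3 lowest, and the groups overlapped. The difference was -0.07 (SE 0.16, limma 95% interval -0.46 to 0.32), and it was 0.0068 without Control 2 and 0.0038 with array weights. Unlike those of Myl1, the distances of Mylpf and Myl3 under the array maximum varied, from 1.74 to 2.12 for Mylpf and from 2.10 to 2.31 for Myl3.

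Mylk2 read 11.97, 12.42 and 12.54 on the Control arrays against 12.17, 13.15 and 12.05 on the cKO arrays. Array cKO 2 stood above all others, and cKO 1 and cKO 3 lay within the Control range. The difference was 0.15 (SE 0.34, limma 95% interval -0.67 to 0.97), and it was -0.20 without cKO 2 and -0.02 without Control 1. In the low and the high range of mouse numbers it was -0.03 and 0.06. The 3 genes most alike in profile were Fbp2, the muscle fructose bisphosphatase, and the predicted genes Gm13785 and Gm11285, at root mean square differences of 0.10, 0.15 and 0.16 log2 units, beside 0.39 for the spread of Mylk2. Fbp2 read 6.11, 6.48 and 6.49 on the Control arrays against 6.06, 7.06 and 6.19 on the cKO arrays, highest in cKO 2 as Mylk2 was.

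The mean level of the fast fibre partners had the same lowest and highest array as Mylk2, but single partners did not all follow. The mean level of all 14 was 14.59, 15.42 and 15.41 for Control against 15.32, 16.39 and 14.87 for cKO, lowest in Control 1 and highest in cKO 2. The type IIb heavy chain Myh4 was at 11.72 in Control 1, 16.88 in cKO 2 and 13.51 to 13.67 on the other arrays. Actn3, the fast fibre actinin, was at 7.97 in Control 1, 15.67 in cKO 2 and 10.66 to 11.47 on the others. Mylk4, a kinase of the same family picked after its values were seen, was at 8.92, 10.43 and 10.22 in Control and 9.47, 11.88 and 7.67 in cKO. Array cKO 2 was thus the highest for Mylk2, Myh4 and Actn3 but not for Mylpf, where Control 2 was higher. The fast partners Myh1 and Myoz1 also had the lowest and highest array of Mylk2. They were at 19.07 and 11.26 in Control 1 and at 19.65 and 12.95 in cKO 2. The remaining fast partners had at least 1 other extreme. Pvalb, a calcium buffer, and Mybpc2, a fast myosin-binding protein, were also highest in cKO 2, at 11.87 and 13.76. Their lowest array was cKO 3, at 7.13 and 7.71. Ampd1 was highest in cKO 1, at 15.54. How far the content of fast fibres on an array bears on the Mylk2 values was not tested.

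**Figure D4:**
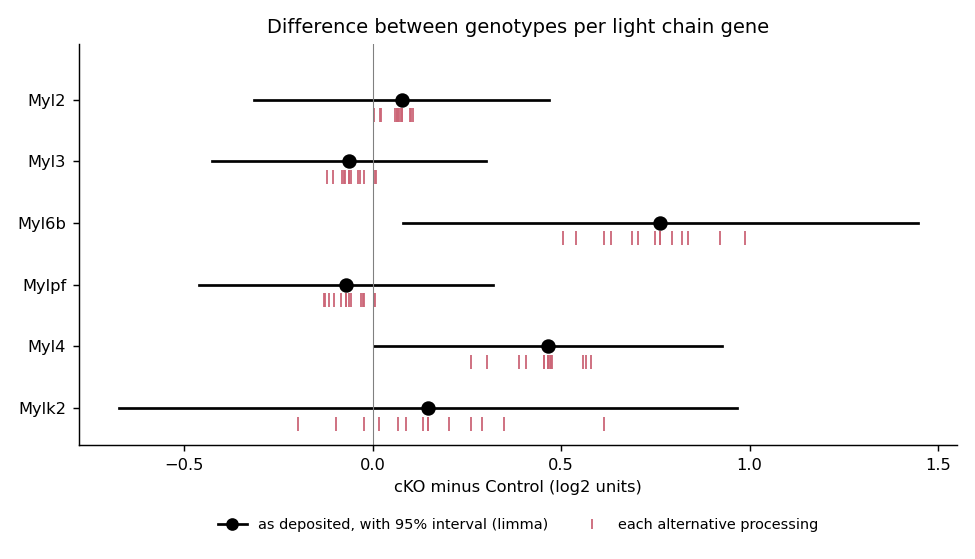
Difference between the genotypes (cKO minus Control, log2 units) for the 6 light chain genes other than Myl1, with the limma 95% interval as a line and the value under each alternative processing as a tick. Myl6b and Myl4 stay above 0 under every alternative, and Myl3, Mylpf and Mylk2 have ticks on both sides of 0. Several alternatives leave a difference as it was, so their ticks coincide. Leaving out an array cannot turn the sign of Myl6b or Myl4, whose groups do not overlap.

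The other myosin light chains serve smooth muscle and nonmuscle cells, the atria or other sites. Of the 5 measured, 0 passed an adjusted p of 0.05 in limma and 0 an unadjusted p under 0.05. There were 4 differences above 0, with a median of 0.20, against 65.8% above 0 and a median of 0.07 over all features. Myl9, the smooth muscle regulatory chain, differed by 0.44 (SE 0.24), at 7.73 to 8.36 in Control and 8.28 to 8.78 in cKO. Myl12a and Myl12b, nonmuscle regulatory chains, differed by 0.27 (SE 0.18) and 0.20 (SE 0.19). Myl12a was the 1 gene of the list whose groups did not overlap, with cKO above Control, as in 8.95% of all features. Myl9 is a smooth muscle gene, and the 7 smooth muscle and pericyte markers had a mean level of 8.44 to 8.88 in Control and 8.72 to 9.08 in cKO. The part of smooth muscle in the Myl9 values was not tested.

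The enzymes that add and remove phosphate on light chains showed no call. Of 13 measured genes 0 passed in limma, 0 at an unadjusted p under 0.05, and the median difference was 0.07, the same as over all features. Ppp1r12b, a subunit that targets myosin phosphatase, differed by 0.28 (SE 0.20), and Ppp1r12c, a relative of it, by 0.16 (SE 0.12). Rock1, the kinase that restrains this phosphatase, differed by -0.36 (SE 0.27), at 0.23 in the low and -0.90 in the high range of mouse numbers.

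Heavy chains are the partners that light chains bind. Of 9 measured heavy chain genes 0 passed an adjusted p of 0.05 in limma and 1 an unadjusted p under 0.05. All 9 differences were above 0, with a median of 0.16. Over all features 65.8% were above 0, with a median of 0.07, and 3.7% were higher in cKO at that unadjusted p. Myh2 is among these 9 although it sat at the array maximum on all 6 arrays, and no fold is given for it. The embryonic heavy chain Myh3 read 9.87, 9.81 and 10.72 on the Control arrays against 10.69, 11.32 and 11.38 on the cKO arrays. The difference was 0.996 (SE 0.33), with an unadjusted p in limma of 0.0201. Its groups overlapped, with Control 3 above cKO 1. Myh4 differed by 1.73 (SE 0.99), and by 0.64 without cKO 2. Myh7b, a slow-type heavy chain gene, differed by 0.45 (SE 0.26). The slow heavy chain Myh7 and the type IIx chain Myh1 differed by 0.05 (SE 0.15) and 0.02 (SE 0.22). Their signs turned, to -0.0035 for Myh7 after centring on array medians and to -0.013 for Myh1 after quantile normalization. Myh7 was partly tied to the array maximum, at 0.55 log2 units under it on every array but Control 2, where it was 0.68. This limits its difference as well.

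Of 10 slow partners and 14 fast partners 0 passed in limma, 0 in either list at an unadjusted p under 0.05, and the median differences were 0.06 and 0.02. The fast median lies midway between Myh1 and Myh2, of which Myh2 was saturated. Tnnt3, Tnnc2 and Atp2a1 also lay close under the array maximum, so this median says nothing of how the fast list compares with other features. The slow median lies midway between Myh7, partly tied to the array maximum, and Tnnc1. Mybpc1 and Atp2a2 of the slow list lay close under that maximum, at 0.14 to 0.15 and 0.08 to 0.10. The slow median is limited in the same way. In the slow list Casq2, the slow calsequestrin, was at 14.89 to 15.30 in Control and 14.71 to 14.79 in cKO, a difference of -0.32 (SE 0.19) with all cKO arrays below all Control arrays. Tnni1, slow troponin I, differed by 0.23 (SE 0.18). In the fast list Actn3 differed by 2.61 (SE 1.45) and by 1.08 without cKO 2, and Ampd1, muscle AMP deaminase, by 0.41 (SE 0.24).

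The embryonic and cardiac partners of Myl4 had a median difference of 0.28 over 7 measured genes, with 6 above 0. Over all features the median was 0.07, with 65.8% above 0. None passed in limma (0 of 7) and 2 had an unadjusted p under 0.05, Mybph and Myh3. Both were higher in cKO, where 3.7% of all features were so. Mybph, a myosin-binding protein, read 4.17, 4.11 and 4.36 on the Control arrays against 4.74, 4.52 and 4.73 on the cKO arrays. The difference was 0.45 (SE 0.13) with the groups apart. The medians of the Control arrays, which set the filter, were 4.13, 4.02 and 4.08. Mybph thus lay near the filter in Control, which limits its difference. Tnnt2, cardiac and embryonic troponin T, differed by 0.59 (SE 0.40), at 1.25 in the low and -0.41 in the high range of mouse numbers. Mean levels of this list were 9.33, 9.31 and 9.76 for Control against 9.84, 9.79 and 9.85 for cKO. Control 3 was nearest to the cKO arrays, as in the tendon list.

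Of 17 measured transcription factors that act on fibre genes, 0 passed in limma and 3 had an unadjusted p under 0.05, all higher in cKO, where 3.7% of all features were so. The median difference was 0.21. Vgll2, a muscle cofactor of TEAD factors, read 13.62, 13.89 and 13.56 on the Control arrays against 14.07, 15.25 and 15.27 on the cKO arrays, a difference of 1.17 (SE 0.36) with the groups apart. The myogenic factors Myf6 and Myod1, which bind E-boxes, differed by 1.07 (SE 0.32) and 0.59 (SE 0.17) with the groups apart. As with Myl4, the Myod1 and Myf6 differences were larger in the low range of mouse numbers, at 0.93 and 1.39, than in the high range, at 0.29 and 0.46. For Vgll2 it was 0.32 in the low and 1.70 in the high range, the same order as for Myl6b. The low range has only cKO 1, the array with the raised median, for cKO, and the high range only Control 3 for Control. These orders thus rest on single arrays.

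**Figure D5:**
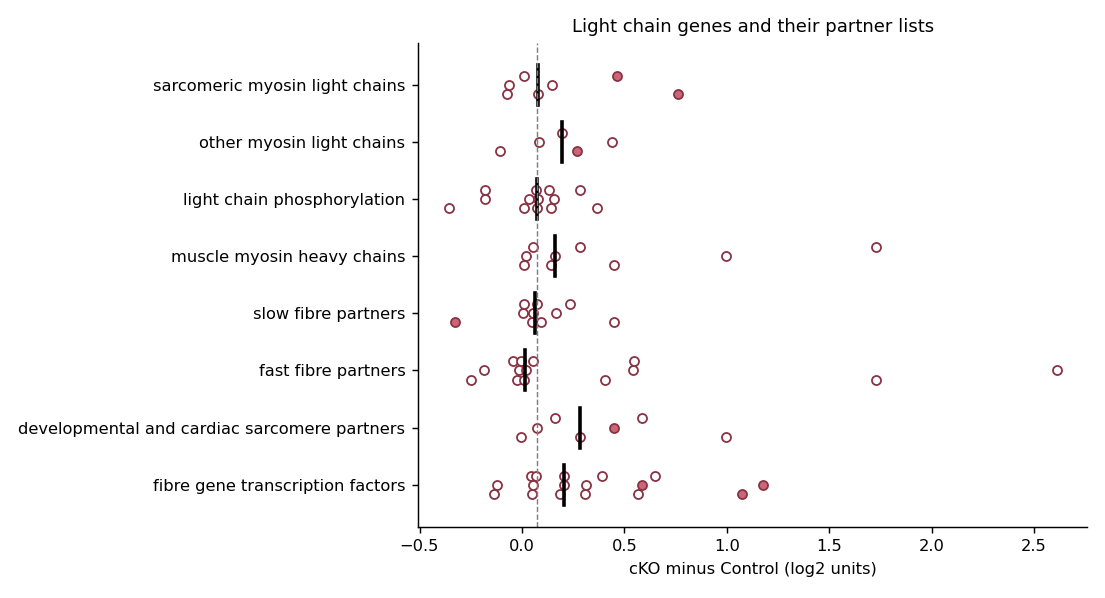
Difference between the genotypes (cKO minus Control, log2 units) for each measured gene of the light chain group and of its partner lists, as points that are filled where the groups do not overlap. Black bars are list medians and the dashed line is the median of all features, 0.07; the medians of the slow and fast partners lie at 0.06 and 0.02.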

How the data were processed

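From each mouse, 100 ng of total RNA was made into biotinylated cDNA with the Affymetrix WT Plus method, per the labels' protocols, and read on 1 array. The authors deposited 1 processed value per feature and array, read here as log2 from its range; log base, background correction, normalization, software and build are not given in the sources used here. Of 72688 features, 6732 held no value. Symbols came from the platform annotation, 30604 features carrying 1. A feature was tested when above the median of its own array on at least 3 arrays, and the fit used limma (version 3.58.1, under R 4.3.3) with an intensity trend and no block, two-sided, with Benjamini-Hochberg adjustment. Single genes also got an exact two-sided permutation test, whose smallest p is 0.1. Alternatives changed the normalization, filter, variance model, array weights, blocks, arrays left out and features of a gene. Figures were drawn with matplotlib 3.10.9 (Python 3.11.15, pandas 2.3.3). The fit was tested on simulated data. The number of arrays limits the precision.

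The genes, lists and tests were chosen with earlier results of these data known. Named were the 7 light chain genes, the 3 genes with the smallest p of each partner list, Myh7, Myh2, Myh1, Myh4, Actn3, Mbtps1, and the 3 genes most alike to a light chain gene with a range above 1 log2 unit; others were chosen after their values were seen. Promoter windows are shown where the start is the outer end of the gene and no other gene lies within.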

Additional observations from a re-analysis of the deposited data

How the results depend on the processing

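Under all 19 alternatives 0 of the light chain genes tested passed an adjusted p of 0.05 in limma. Myl6b stayed above 0 in 19 of 19 alternatives, from 0.51 to 0.99, and Myl4 in 18 of 18, from 0.26 to 0.58. Most of these could not turn the sign. Changes of the filter, the variance model, the replicate block or the features of a gene left both differences as they were. With the groups apart, leaving out an array cannot turn a sign either. These counts are therefore not separate support. Myl2 ranged from 0.0034 to 0.11, but its tie to the array maximum on 4 of 6 arrays leaves its sign uninformative. Myl4 was not tested with the filter at the 75th percentile. The number at an unadjusted p under 0.05, 2 as deposited, was 1 (Myl4) after quantile normalization, after centring on array medians, with the mouse number range as a block, and with that block after quantile normalization. It was 1 (Myl6b) with the filter at the 75th percentile, without a trend, with robust settings, with the replicate block, and after centring on array maxima. With each array left out the number ran from 0 to 2. The share of all features at that unadjusted p in limma moved as well. It was 2.89% to 9.43% with each array left out, 6.96% with the filter at the 75th percentile and 12.8% with array weights. As deposited it was 4.5%, so the numbers under the alternatives are not to be read against that share. The number without overlap of the groups, 2 as deposited, was 1 after centring on array medians and 2 to 4 with each array left out. Groups part more easily with fewer arrays, and the share of all features without overlap was not counted under the alternatives. Centring on array maxima and removal of features at a fixed distance under the maximum were chosen after seeing the data.

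Among the genes whose difference was recomputed (the light chain genes other than Myl1, the genes with the smallest p of each partner list, Myh7, Myh1 and Mbtps1), signs turned for Myl3, Mylk2, Mylpf, Myh7 and Myh1. Myl3 was at 0.0064 after quantile normalization and 0.0078 with the number range as a block as well. Mylk2 was at -0.099 with both together, and from -0.20 to 0.35 with each array left out. Mylpf was at 0.0038 with array weights and from -0.13 to 0.0068 with each array left out. Myh7 was at -0.0035 after centring on array medians. Myh1 was at -0.013 after quantile normalization, -0.040 after centring on medians, -0.034 with the number range as a block, -0.054 with both, and from -0.15 to 0.14 with each array left out. The cause was not tested.

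The replicate numbers of the titles did not pair the arrays. Deviations from the group means correlated at 0.13, -0.20 and 0.21 for numbers 1 to 3, and 2 of 6 arrays were closest to their own number. With the replicate block Myl6b had an unadjusted p of 0.0267 and Myl4 of 0.0624 in limma. Myl1 kept a fixed distance under the array maximum, and Myl2 did so on 4 of 6 arrays far below it, which limits both. The number of arrays limits every gene.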
